A study of Drosophila melanogaster with 5 samples.

Results

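The transcripts that stood highest in cells sorted from Drosophila melanogaster embryonic cell cultures, labelled as cholinergic neurons by a GFP reporter, were described from 4 arrays (replicates a, b, c and d). ChAT, the marker behind the label, was above background on each. The general neuronal marker elav was under background on a and b and above it on c and d. The midgut junction genes Ssk, mesh and hoka were among the brightest. As whole lists, pan-neuronal and midgut genes had medians at 44.9% and 45.9% from the top. The top set was chosen by signal: a probe set belongs to it if it ranked within the brightest 5%, the first 698 of 13966 probe sets without the 44 controls, on each of the 4 arrays. It held 429 probe sets, which is 3.07% of all, and 317 of them carry 1 gene symbol, for 315 genes. These signals chose the members, so their levels are a description and carry no test.

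The series measured total RNA on 5 single-colour oligonucleotide arrays, the 4 of embryo culture and 1 of dissociated larval brain. In both groups cells were separated by fluorescence-activated sorting for the GFP of a UAS-GFP transgene under Cha-Gal4, a driver with 7.4 kb of DNA of the choline acetyltransferase gene. No age, time in culture or wild-type background is given in the labels, no treatment is named, and no unsorted or GFP-negative cells were analysed here. Nothing in the labels tells separate cultures from repeat hybridisations among the 4 arrays, and their spread may be technical. The arrays give a signal per probe set in arbitrary linear units, with each array scaled by the authors to a common trimmed mean.

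Cholinergic neurons make acetylcholine with choline acetyltransferase, load it into vesicles and take choline back up after the transmitter is broken down. Acetylcholine is the main fast excitatory transmitter of the insect central nervous system. In most animal cells, neurons included, the most abundant messenger RNAs encode ribosomal proteins, translation factors, cytoskeletal proteins, chaperones and enzymes of energy metabolism. A signal depends on how well a probe set binds as well as on how much transcript is present, so an order of signals is not an order of molecule numbers.

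On arrays a to d the brightest 5% of probe sets began at signals of 2739.7, 2569, 2724 and 2379, which is 12.3, 10.9, 13.2 and 9.27 times the array's median. The 429 members held 38.01%, 38.7%, 44.7% and 40.6% of the summed signal of arrays a to d. The 10 brightest probe sets of each array held between 4.35% and 5.58% of it. Signals of single members ran between 2395 and 99144, and the mean of log2(signal + 47.4) between 11.48 and 15.92, with a median of 12.55 against 8.04 for all probe sets. All 429 lay above background, the brightest of 23 controls for foreign sequences, on each array (148, 200.4, 119 and 271 on a to d), as did 5540 of the 13966.

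The arrays shared much of their brightest 5%, but not all. Of 1004 probe sets within the brightest 5% on any of the 4 arrays, 429 were so on all 4 by the rule, 146 on 3, 209 on 2 and 220 on 1. Probe sets chosen on 3 arrays and then looked up on the array left out were within its brightest 5% for 429 of 459 (93.5%) on a, 429 of 448 (95.8%) on b, 429 of 468 (91.7%) on c and 429 of 487 (88.1%) on d. The 429 are the same in each count, so these shares describe the rule and are no separate check of it. The few that were far down on the array left out were on d: CG34166 had signals of 7398, 6682, 7547 and 149.9 on a to d, and CG7465 had 11555, 9065, 6692 and 660.2.

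Array d differs from the others in its controls. Its background was the highest of the 4, and the spiked-in control BioDn had 13373, 18030, 10331 and 39210 on a to d and CreX 33140, 39263, 36806 and 112427. Ranks within an array do not change with its scaling. Among members, the correlation of log2 signal over the 429 probe sets, which share arrays and are not replicates, was 0.958 between a and b, 0.896 between c and d, and between 0.758 and 0.814 for the other 4 pairs. The ratio of 3′ to middle signal of a control messenger RNA, which grows as the 5′ side of the RNA is lost, was 8.39, 4.60, 2.59 and 3.55 on a to d for eIF4A, 4.18, 5.14, 3.22 and 3.25 for GAPDH and 4.65, 5.55, 2.68 and 2.73 for actin. It was higher on a and b than on c and d for all 3 controls, and its part in the differences between arrays below was not tested.

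The 2 brightest named genes were GstD1, a glutathione S-transferase that conjugates toxic compounds to glutathione, and RpS20, a protein of the small ribosomal subunit. GstD1 had signals of 45368, 52674, 62255 and 99144 on a to d, a mean log2 of 15.92 ± 0.49 (SD, n = 4). Array d is the highest for it and array a the lowest. RpS20 had 43648, 59606, 63661 and 64049.9 (mean log2 15.80 ± 0.26). Their ranges overlap, so which is the brighter of the pair depends on the array.

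Next came RpLP1, an acidic protein of the ribosomal stalk, with 37358, 44962, 53357 and 36619, and GstE1, another glutathione S-transferase, with 30831, 33185, 48078 and 45094. CG17738, a gene known by its number, followed with 36057, 41439.7, 32636 and 21689. Further down stood RpS15 at 31199 ± 16392, RpS21 at 27255 ± 7065 and RpS30 at 29177 ± 14347 (SD, n = 4), all of the small subunit, and RpL3 and RpL27 of the large one, at 24275 ± 4369 and 24017 ± 15439.7. RpS26 and RpS18, also of the small subunit, averaged 19227 ± 5079 and 18715 ± 10821. CG43896, CG9568, CG5399 and CG13674, also known by number, averaged 20943 ± 6488, 19765 ± 3406, 20142 ± 6816 and 17555 ± 5719. Chic, described below, closed the first 30. The 30 genes with the highest mean log2 held 15 ribosomal protein genes, 3 glutathione S-transferases, 2 translation factors and 5 genes with only a CG number. Their linear means lie between 16362 and 64860, and some genes outside the 30, such as RpL36A (18625 ± 12904), have a higher linear mean than chic. In 29 of the 29 neighbouring pairs of this order the signals of the 4 arrays overlap.

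The order also has gaps. Among the first 100 probe sets by mean log2, 44 have no gene name in the array's annotation, and in the whole set 101 have none and 11 have several. The unnamed members hold between 34.4% and 36.6% of the members' signal on the 4 arrays. Of the 13966 probe sets 89.1% have 1 symbol, and of the members 73.9%, so genes at the very top are missing from the names below more often than elsewhere.

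Cytoplasmic ribosomal proteins filled the top of the order. Of 33 named probe sets for them, 26 were members (78.8%, against 3.07% of all probe sets), and the median place of the 33 was 0.465% from the top. The 26 made up 4.02%, 4.61%, 7.42% and 5.93% of the whole signal of arrays a to d. After RpS20 and RpLP1 stood RpL10Ab with 23303, 24115, 46521 and 32190.3 and RpS7 with 25613, 29239, 40858 and 27059 on a to d. The dimmest member was RpL28, with 3231, 2839, 7979 and 4748. At the bright end also stood RpL40 (mean 23959.6 ± 8722, SD, n = 4), whose protein is made as a fusion with ubiquitin, and RpLP0 (22768 ± 5466), to which the stalk proteins bind.

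Of the 7 ribosomal probe sets outside the top set, 6 belong to genes with a near copy elsewhere in the genome. RpL10Aa averaged 50 ± 22.1 where its copy RpL10Ab averaged 31532 ± 10768 (SD, n = 4). RpS28a averaged 86.7 ± 96.4 and RpS28b 29015 ± 18057, and RpL37-2 averaged 1631 ± 625 and RpL37-1 17461 ± 9123. In each of these pairs 1 copy is in the top set and the other is not. RpS5b, RpS10a and RpS19b have copies with no named probe set here. RpS5b had 1653, 1885, 2669 and 4792 on a to d. RpS10a had 36.9, 244, 158 and 475, and RpS19b had 58.7, 62.5, 218 and 113, both far below. The seventh, RpS29, missed the set with 2214, 1667, 4788 and 1638. Copies of this kind can share probe sequence, and cross-hybridisation between them was not measured.

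The ribosomal protein members varied more between arrays than the members as a whole. Their median SD was 0.61 on the log2 scale, against 0.34 for all 429, and 21 of the 26 were brightest on array c. How many of all 429 were brightest on c was not counted. The median deviation of the 429 from their own mean was -0.06, -0.04, 0.17 and -0.10 on a to d, so they too ran highest on c. For the ribosomal protein members it was -0.40, -0.34, 0.67 and 0.17, so c stood above a and b. RpL32 showed it most, with 3761, 4330, 18896 and 13213, and RpL36A had 6888, 8679, 33194 and 25740.2. RpL17 ran the other way, with 25803, 22914, 13879.6 and 11205, and RpL23 varied little, with 12536, 13076, 13899.5 and 12147. The arrays on which most of these genes were low, a and b, are those with the higher 3′ to middle ratios.

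Translation factors had 13 of 50 probe sets in the set (26.0%). The helicase eIF4A, which unwinds the 5′ end of messenger RNAs, had 14879, 15239, 43062 and 24763, with c the highest, and eEF5, which helps ribosomes through difficult peptide bonds, had 16079, 14377, 21019 and 19969. Tctp averaged 10779 ± 3299 and eIF3e, a subunit of an initiation complex, 7753 ± 1504 (SD, n = 4). Rack1, a scaffold protein bound to the small ribosomal subunit and on no list used here, averaged 24693 ± 4056. None of the 66 probe sets for mitochondrial ribosomal proteins was a member, and the brightest, mRpS11, stood 6.22% from the top with 2023 ± 429.

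Genes of oxidative phosphorylation, the mitochondrial pathway that makes ATP from respiration, had 16 of 76 probe sets in the set (21.1%). The highest was cype, a cytochrome c oxidase subunit, with 14404, 13953, 12275 and 10279 on a to d. The ATP synthase subunit ATPsynE averaged 9076 ± 3364, COX7A, of cytochrome c oxidase, 7978 ± 2009 and UQCR-Q, of the cytochrome bc1 complex, 6819 ± 1429 (SD, n = 4). Of the 16, 13 were brightest on array c, where the median deviation of all 429 members was also the highest. Among carriers of the mitochondrial membranes, porin, the outer membrane channel, averaged 9277 ± 2977, Mpcp2, a phosphate carrier, 5664 ± 1548 and sesB, which exchanges ADP for ATP, 5059 ± 1644. Porin has a further probe set, at 1503 ± 749, which was not in the set.

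Of 8 glycolysis genes, Gapdh1 and Pglym78 were members. Gapdh1 had 5029.5, 6115, 15256 and 10016 on a to d, and Pglym78 had 3441, 3990.2, 5285 and 5694. Ald1, the aldolase, had 2467, 2266, 15551 and 13709 and enolase, Eno, 2309.9, 2939, 7617 and 9878. Both were within the brightest 5% on c and d, but Ald1 missed the limit on a and b and Eno on a.

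Cytoskeletal genes had 8 of 14 probe sets in the set (57.1%), and the leading one was also among the steadiest of all. The profilin gene chic, which controls actin assembly, had 15639, 16091, 17302 and 16418, an SD of 0.06 on the log2 scale. The actin-severing cofilin tsr had 15065, 10912, 20196 and 15685. The adaptor 14-3-3zeta averaged 16789 ± 5231, betaTub56D, a main tubulin, 15428 ± 3051, and the 2 probe sets of alphaTub84D 6478 ± 1975 and 5243 ± 923 (SD, n = 4).

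Protein folding and turnover also had members. Of 20 chaperone probe sets 4 were members: Cyp1, a cyclophilin, at 13605 ± 3328, Droj2, a DnaJ protein, at 8504 ± 1363, Hsc70-4, the constitutive Hsp70 relative, at 5904 ± 1722 and Fkbp12 at 4442 ± 1457 (SD, n = 4). The polyubiquitin genes Ubi-p5E and Ubi-p63E averaged 11025 ± 2423 and 10672 ± 2969.9, and with them 11 of 44 ubiquitin and proteasome probe sets were members (25.0%). Prosbeta4 and Rpt5, of the core and the cap of the proteasome, averaged 6962 ± 1490.3 and 5763 ± 811. The secretory pathway had 4 of 33: Sec61beta and Sec61alpha, of the channel through which proteins enter the endoplasmic reticulum, at 5223 ± 367 and 5141 ± 2454, the signal peptidase subunit Spase12 at 4271 ± 597 and bai at 3157 ± 484.

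The vacuolar proton pump, which acidifies lysosomes and synaptic vesicles, had 5 of 32 probe sets in the set. Vha26 had 21134, 14451, 9035 and 8548 on a to d, with a the highest. VhaPPA1-1, VhaM9.7-b and VhaAC45RP averaged 5656 ± 1025, 5379 ± 1179 and 5338 ± 925 (SD, n = 4). Vha16-1 was the brightest named probe set outside the set by mean log2, ahead of Ald1, whose linear mean was higher: it had 3262, 2302, 16854 and 10126, and array b alone kept it out.

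Among genes of detoxification and defence, the glutathione S-transferases had the most members. Of 36 glutathione S-transferase probe sets 5 were members (13.9%): GstD1 and GstE1, GstD2 with 13437, 16824, 19809 and 38638, GstE6 with 6756, 5182, 8802 and 5761, and GstO3 with 4318, 5544, 5926 and 4173. The median place of the whole family was 21.2% from the top. Of 85 cytochrome P450 probe sets 2 were members, Cyp4p2 at 6348 ± 3363 and Cyp9b2 at 3845 ± 989, which is 2.35%, near the 3.07% of all probe sets. None of 35 UDP-glycosyltransferases was a member. Of 25 immune probe sets IM33, an immune-induced gene, was the 1 member (4%), with 9551, 9594, 14019 and 22184 and d the highest.

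The iron storage subunits Fer2LCH and Fer1HCH and the thioredoxin reductase Trxr1 were 3 of 6 genes matched to the antioxidant and iron list. Trx2 was also a member, at 11866 ± 2897 (SD, n = 4), but the list held it under another spelling and did not count it. Fer2LCH had 7955, 8836, 8417 and 7858 and Fer1HCH 5744, 6414, 7820 and 5224. The tetraspanins with a Tsp name, membrane proteins with 4 passes, had 5 of 31, and tetraspanins named otherwise were not counted. Tsp42Ee and Tsp42Ed averaged 15196 ± 2247 and 14777 ± 1639, and Tsp29Fa, Tsp29Fb and Tsp42El lay between 3953 and 5529. Idgf4 and Idgf3, secreted growth factors related to chitinases, averaged 6119 ± 2617 and 3931 ± 812, as 2 of 6 members of their family.

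None of the 4 probe sets for genes that mark cholinergic neurons was in the top set, and the best of them missed it on 1 array. The best probe set of ChAT (choline acetyltransferase), from which the driver was taken, had signals of 1457, 2573, 2846 and 2927 on a to d, so it was within the brightest 5% on b, c and d and missed the limit on a, and its mean stood 5.11% from the top. A further ChAT probe set had 1421, 1093, 881 and 908. ChT, a choline transporter, had 435, 706, 958 and 1394 (18.1% from the top), and Ace, the acetylcholinesterase that breaks the transmitter down, had 152, 239, 288 and 40.2 (58.1%). ChAT and ChT were above background on all 4 arrays and Ace on 3. The vesicular transporter VAChT has no named probe set. Of 15 acetylcholine receptor probe sets the brightest, nAChRbeta2, nAChRalpha2 and nAChRbeta1, averaged 1285 ± 203, 1088 ± 275 and 1058 ± 708, and their list's median stood 56.4% from the top.

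Pan-neuronal and synaptic genes had 1 of 29 probe sets in the set (3.45%, near the 3.07% of all probe sets). It was Nrt (neurotactin), a cell adhesion protein of growing axons, with 3987, 3926, 4661 and 4228. A further Nrt probe set averaged 154 ± 67.7 (SD, n = 4) and stood 59.2% from the top. Csp, a chaperone of synaptic vesicles, averaged 2339.8 ± 372 (5.23% from the top) and Rop, which acts in vesicle fusion, 2277 ± 189 (5.37%). The neuronal RNA-binding protein gene elav stood at 44.9% with 104, 61.4, 713 and 667, and nSyb, the vesicle SNARE, at 45.2% with 151, 159, 389 and 424. The list's median stood 44.9% from the top. On all 4 arrays 13 of its 29 probe sets were above background, near the share of all probe sets (5540 of 13966).

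Of the genes for other transmitters Ddc was a member, with 6728, 6767, 8429 and 4469. Its enzyme makes dopamine and serotonin in neurons and also works in the epidermis, where cuticle is hardened. The others were lower: ple, tyrosine hydroxylase, averaged 1291 ± 875 and Vmat, which loads amines into vesicles, 949 ± 218 (SD, n = 4). Among neuropeptide genes, Nplp4 had 19161, 20798, 14879.8 and 15254 and Nplp2 19700.4, 14564, 4878 and 2525, both named as neuropeptide-like precursors. Dh31, a diuretic hormone gene, averaged 3197 ± 733 and missed the set.

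Markers of other cells were present among the brightest transcripts. Of 48 probe sets on the midgut list 5 were members (10.4%). Ssk, mesh and hoka encode membrane proteins of smooth septate junctions, the seals of the insect midgut epithelium. Ssk had 12778, 9936, 7154 and 16693, mesh 6058, 10187, 6042 and 12426 and hoka 8082, 5240, 2853 and 3826 on a to d. Of the lysozymes, LysS had 5384, 6626, 4903 and 20508, with d the highest, and LysB had 3426, 3722, 3649 and 3944. Tsp2A, another protein of these junctions, had 4500, 5079, 1923 and 2695 and missed the set. The list's median stood 45.9% from the top, and its summed signal was 60389.9, 63354, 45837 and 81201 on a to d. Of its 48 probe sets 21 lay above background on all 4 arrays, near the share of all probe sets (5540 of 13966).

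The summed signal was 16812, 16729.5, 20757 and 24677 on a to d for the pan-neuronal list and 3466, 4611, 4972 and 5269 for the cholinergic list. The lists differ in size and in their probes, so these sums are not set against each other. The neuronal gene elav was under background on a and b and above it on c and d, while ChAT and ChT were above it on all 4 arrays. Smooth septate junction genes of the midgut were in the top set, although mesh has a further probe set that was under background on each array. In sorted cells measured in bulk, fewer cells of a type and less RNA per cell cannot be told apart, and the part of other cells in these levels was not tested.

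Other lists gave at most 1 member, where 3.07% of all probe sets are members. Glia had 1 of 13, drpr, an engulfment receptor, at 4733 ± 1002, with loco next at 1738 ± 445 and Gli at 1256 ± 408. A further drpr probe set averaged 17.1 ± 14.4 and stood 98.2% from the top. Of muscle genes Act87E, Mlc2 and Mp20 averaged 2633 ± 925, 2064 ± 1337 and 1621 ± 852, with 0 of 24 in the set. Of blood cell and matrix genes, PPO2, a prophenoloxidase, had 4569.8, 5257, 365 and 672, so a and b stood above c and d. Tig and LanA averaged 1184 ± 298 and 1121 ± 613.

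The epidermis, cuticle and trachea list had 0 of 127 in the set, against 3.07% of all probe sets. Its brightest, Cpr67B, a cuticle protein gene, had 8742, 7475, 5223 and 2096 and missed the limit on d, and obst-F and Cpr47Eb averaged 4420.1 ± 3001 and 3408 ± 1335. Fat body (0 of 8), germline (0 of 9) and progenitors and cell division (0 of 18) were led by apolpp, aub and PCNA, at 857 ± 279, 409 ± 96 and 1295 ± 473. These lists are too short for a count of 0 to be read against that share. Next on these lists stood Lsp2 and Yp2 at 303 ± 139 and 258 ± 96.5, zpg and pgc at 339 ± 167 and 242 ± 127, and RnrL and CycB at 958 ± 349 and 891 ± 255. The list for histones and chromatin was matched by name and also took in genes that are neither, such as HisRS, an aminoacyl-tRNA synthetase. Of its 4 probe sets 0 were members, which says nothing about histones, and of RNA binding and splicing genes 1 of 20.

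The members differed in how steady they were. The median SD of log2 signal over the 4 arrays was 0.34 for the 429, against 0.42 for the 967 other probe sets among the brightest 10% by mean and 0.48 for all probe sets. A limit that has to be passed on every array favours steady probe sets, so no comparison is drawn from that. An SD under 0.5 was found for 326 members and one over 1 for 8. The median ratio of a member's highest to its lowest array was 1.69.

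The steadiest named members were puml, chic, CG11414, CG2076 and CG7627, each with an SD between 0.06 and 0.07. Of these puml had 2849, 3013, 2832 and 2729.8. The least steady was pAbp, the protein that binds the poly(A) tail of messenger RNAs, with 3057, 4322, 34845 and 28547 (mean log2 13.40 ± 1.81). Its arrays fall far apart, with a and b below c and d. Nplp2 was the second (SD 1.37), in the other direction, with a and b above c and d. RpL32, RpL36A and CG44325 followed, with SDs between 1.10 and 1.15.

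The limit itself cuts through a continuous range. Just inside it, by the worst of their 4 ranks, stood Gdh with 2753, 2796, 3631 and 2709.7, ste24a, Got2, CG6961 and CG10650. Their worst ranks were 693, 692, 692, 692 and 691. Just outside stood CG12934 with 4137, 3587, 8503 and 2374, CG8839, CG10126, CG17109 and CG7298, with worst ranks of 699, 702, 702, 703 and 704. CG7298 had 9091, 7890.1, 6592 and 2349, so d alone left it out.

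A gene's place depends on which of its probe sets is read. Of the 315 genes 53 have further probe sets, and for 51 of them at least 1 of these was outside the set. The dimmest lay below the median of all probe sets for 32 of the 53, and the median ratio of the brightest to the dimmest mean was 32.0. The gene mesh, for example, has a probe set at 8678 ± 3169 and another at 69.5 ± 37.8 (SD, n = 4), and rut, an adenylyl cyclase, one at 29346 ± 2563 and another at 279.9 ± 180.1. That of rut is marked in its name (_f_at) as one whose probes match several related sequences, so its signal may not be that of rut. Such probe sets were 14 of the 429 members (3.26%) and 53 of all 13966 (0.379%). Nplp4, cype, Ubi-p5E, mam, dpr3, alphaTub84D, ox, drpr, Nrt and LysB also stand in the set through a probe set whose name marks shared or incompletely specific probes.

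On the larval brain array, which the choice did not use, 300 of the 429 members (69.9%) were in the brightest 5%, where any probe set has a share of 5.0%. They are 43.0% of that array's own 698. The larval brain group has 1 array and so no spread of its own, and the differences were not tested here. By place in the embryo culture order, 24 of the first 30 named genes (80.0%), 51 of the next 70 (72.9%), 62 of the next 100 (62.0%) and 71 of the last 115 (61.7%) were in the larval brain's brightest 5%.

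By list, the counts ran between all members and none, and no difference between lists was tested. All 26 ribosomal protein members were in the larval brain's brightest 5%, as were 12 of 13 translation factors, 15 of 16 oxidative phosphorylation genes, all 8 cytoskeletal probe sets, all 4 chaperones and all 11 of ubiquitin and the proteasome. RpS20, given above for embryo culture, had 55754 in larval brain, and chic had 17816. The vacuolar proton pump had 3 of 5 there, mitochondrial carriers 1 of 3 and glycolysis 1 of 2. There were 1 of 5 midgut members, 1 of 5 tetraspanins with a Tsp name, 2 of 5 glutathione S-transferases and 0 of 2 Idgf genes. Ssk and mesh, for which the embryo culture values are given above, had 566 and 438 on the larval brain array.

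At the far end, 25 of the 315 genes ranked below the median of the larval brain array, and 16 of them were at or under its background of 82.6. Of all probe sets, 68.0% were above that background, and the median by definition divides them evenly. Both counts are therefore smaller shares than among all probe sets. Larval brain has no spread of its own, so the genes below are a description. GstE1, Nplp2, GstE6, Ag5r and Fst are among the 25, with 206, 116, 164, 83 and 159 in larval brain. The 16 include Tsp42Ed, IM33, Muc26B, Kaz-m1, Srg2, hoka, Swim, mat and Cyp9b2, with 7 further genes known by CG numbers. Of these, Muc26B, annotated as a mucin, had 17390.2, 20355, 9182 and 7676 in embryo culture and 14.2 in larval brain. Swim had 3260.4, 3194, 7262 and 4928 in embryo culture, against 42.9 in larval brain.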

How the data were processed

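Total RNA from 4 embryo culture samples and 1 larval brain sample was measured on 1-colour oligonucleotide arrays, grouped by their titles. The deposited table gives a linear signal intensity for 14010 probe sets. From the values, the authors scaled the intensity of each array: the mean after trimming 2% at each end lay between 500.06 and 500.08. Software, background correction and genome build were not given in the sources used here. Detection calls were not used.

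The 44 controls were left out. Ranks were taken within each array on the deposited intensity, and levels are means of log2(intensity + 47.4), where 47.4 is the 20th percentile of the table, with the SD over 4 arrays. No test was run, since the signals chose the members, and no filter was applied. Background is the highest of 23 bacterial, yeast and mouse controls on each array. Precision is limited by having 4 arrays.

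The platform annotation gives 12443 probe sets 1 symbol, 327 several and 1196 none. Symbols were checked through Entrez identifiers for 12394 against RefSeq genes of Release 6, which changed 0. The members and the 33 gene lists were chosen with earlier results of these data known. Named are the 30 brightest genes, up to 4 members per list, up to 3 of the brightest genes of each cell type list, all cholinergic genes, 5 genes on each side of the limit and the 5 least and most variable. Genes known by CG numbers are mostly counted. Alternatives were other limits, ranked sets, pseudocounts and scalings, and leaving out each array. The ranking code was run on simulated data with some probe sets raised far above the limit. That setting fixed their recovery in advance, so it is no check of the rule near the limit. Promoter motifs were planned and not analysed here. Python 3.11.15, NumPy 2.4.6 and pandas 2.3.3 were used.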

Additional observations from a re-analysis of the deposited data

Results flagged for a closer look

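Named genes and controls were screened for 1 array far from the other 3 by Dixon's criterion. Genes were screened on the log2 scale and array-level values on the linear scale. Of 138 sets of 4 values 8 were marked, close to the 1 in 20 that chance marks. The marks below are therefore a description of single values. Array d stood apart for 4 of them. Mpcp2, the mitochondrial phosphate carrier, had 3345.5 on d and between 6303 and 6517 on the others, and sesB, the ADP/ATP exchanger, had 2599.8 on d and between 5772 and 6039 on the others. For bai, of the secretory pathway, the value on d was 2432, against 3367 to 3437. The spiked-in control CreX was 112427 on d, against 33140 to 39263. Array c stood apart for the other 4. Fkbp12 had 6615 on c, against 3514 to 3887, and Gdh, glutamate dehydrogenase, had 3631 on c, against 2709.7 to 2796. VhaAC45RP had 3951 on c, against 5767 to 5840.2, and nAChRbeta2 had 982 on c, against 1362 to 1411.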

How the results depend on the processing

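Leaving out 1 embryo culture array gave between 448 and 487 members, 331 to 363 of them with 1 symbol, 124 to 131 on a gene list, 26 ribosomal proteins each time and 5 to 6 midgut probe sets. Between 312 and 316 of them were in the brightest 5% of larval brain, and the median SD lay between 0.28 and 0.37. A limit at the brightest 1% left 89 members, 47 with 1 symbol and 33 on a list, with 0 from the midgut list and 18 ribosomal proteins; a limit at 10% gave 863, 682, 193, 8 and 28. Ranking by mean log2 in place of all 4 arrays gave 698 members by construction, with 8 from the midgut list. Ranking plain _at probe sets alone, an alternative chosen after seeing the data, gave 417. Another pseudocount, median centring, quantile normalization or leaving out dim probe sets gave a median SD between 0.32 and 0.40. Of 917 values of named genes under other settings, 0 moved by more than the SD between arrays. For most of these settings that outcome was fixed in advance. Leaving out 1 of 4 arrays cannot shift a mean by as much as its SD. Median centring, as done here, leaves the mean unchanged. No conclusion is drawn from that count. Of 310 member counts of the other gene lists, 57 moved by over 1.5 times, where any change to or from 0 was taken as moved. The 310 include the limits at 1% and 10% and the ranking by mean log2, which change the number of members by construction. No conclusion is drawn from the 57. No paired analysis was possible because the groups share only the letter a. All members lie above background on each array, which the rule ensures because its limit lies far above background on every array.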

Other observations

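The chaperonin CCT, a ring of 8 different subunits that folds actin and tubulin, was looked at after its values were seen. Its 8 genes have 9 probe sets, of which 5 were in the top set. CCT2 had 9689.6, 11558, 25918 and 29338 on arrays a to d of embryo culture, and CCT1, CCT5, CCT6 and CCT4 averaged 8209 ± 1478, 4707 ± 366, 4204 ± 1606 and 3992 ± 997 (SD, n = 4). CCT8, CCT3 and CCT7 missed the set with 2371 ± 481, 1801 ± 432 and 1307 ± 179. The further probe set of CCT2 had 526 ± 488. The median place of the 9 was 2.75% from the top. Of 5 other groups looked at in the same way, cathepsins had 4 of 9 probe sets in the set, the 20S proteasome core 7 of 23, eIF3 subunits 3 of 17, COP coat proteins 1 of 5 and aminoacyl-tRNA synthetases 2 of 22.

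Cathepsins, proteases of the lysosome, were also looked at after their values were seen. Of 9 genes 4 were members. CtsL1 had 10024, 11388, 14720.2 and 15014 on a to d and 7047 in larval brain, and CtsF had 8629, 8388, 8662 and 7104 on a to d and 8218 in larval brain. CtsB and cathD averaged 4485 ± 945 and 3647 ± 234. The remaining 5 averaged between 34.9 (CtsL3) and 2042 (CtsK1).

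Some named members are neighbours in the genome. In the RefSeq order of protein-coding genes measured here, 33 of 314 members (10.5%) had another member next to them, and 5.71% of all 10775 measured genes had a member next to them. The pairs include GstD1 with GstD2, Tsp42Ed with Tsp42Ee, Tsp29Fa with Tsp29Fb and Fer1HCH with Fer2LCH, which are related genes, and chic with eIF4A, which are not.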
